A study of Mus musculus with 12 samples.

Results

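Eomes, Lhx1 and Evx1 are 3 transcription factor genes of the primitive streak, the site at which epiblast cells leave their layer and become mesoderm and endoderm. Every probe set that the array's annotation gives to these genes alone was taken: 2 for Eomes (1435172_at and 1426001_at), 2 for Lhx1 (1450428_at and 1421951_at) and 1 for Evx1 (1421627_at). They are 3 of 18193 measured genes. In Smad4-null embryoid bodies the signal of all 3 genes was far below WT, at 7.95% of the WT signal for Eomes, 6.97% for Lhx1 and 5.34% for Evx1 (n = 4 arrays per line). The Smad4-null signal of Lhx1 and Evx1 lay at background, and with signals floored at 64 on the linear scale the shares were 14.0% and 19.2%. In Trim33-KD embryoid bodies their mean signal lay between WT and Smad4-null, and none of the 3 differences from WT passed the test. Between activin and SB431542, each given for 2 h, none of them differed past the test in any line.

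The cells were embryoid bodies, which are aggregates of mouse embryonic stem cells left to differentiate, of strain 129 and taken at day 2.5. There were 3 lines: wild type (WT), Smad4-null, and a knock-down of Trim33 (Trim33-KD). Each line received activin at 50 ng/ml (ac) or SB431542, a blocker of the type I receptors for activin and nodal that the labels give at 10 mM (SB), for 2 h. This makes 6 groups, WT-ac, WT-SB, Smad4-null-ac, Smad4-null-SB, Trim33-KD-ac and Trim33-KD-SB, with 2 arrays each. All embryoid bodies received one of these agents, so a difference between them can come from activin, from the blocker or from both. Smad4-null is a separate line, so the mutation and the line cannot be told apart, and the labels describe neither how the lines were made nor whether replicates were separate cultures. The p-values therefore describe the spread between arrays, and that spread may be technical.

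Nodal and activin signal through receptors that phosphorylate Smad2 and Smad3, which bind DNA together with the shared partner Smad4; Trim33 is a nuclear protein that binds activated Smad2 and Smad3. Eomes is a T-box factor that the embryo needs to form definitive endoderm and to let nascent mesoderm move out of the streak, and it is also used in the trophoblast. Lhx1 is a LIM homeodomain factor of the anterior streak and of the mesendoderm needed to form the head. Evx1 is an even-skipped type homeodomain factor of the posterior streak, where BMP, nodal and Wnt signals overlap.

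The 250 bases before the annotated start of each gene are shown because all 3 genes were low in Smad4-null (RefSeq, build GRCm38.p6; all 3 genes matched). The window of Eomes lies at chr9:118477939-118478188 on the plus strand, that of Lhx1 at chr11:84525535-84525784 on the minus strand and that of Evx1 at chr6:52313248-52313497 on the plus strand. Capitals mark the Smad box CAGAC (or GTCTG, its reverse complement) and the CCAAT box (or ATTGG, its reverse complement), both searched on either strand.
Eomes: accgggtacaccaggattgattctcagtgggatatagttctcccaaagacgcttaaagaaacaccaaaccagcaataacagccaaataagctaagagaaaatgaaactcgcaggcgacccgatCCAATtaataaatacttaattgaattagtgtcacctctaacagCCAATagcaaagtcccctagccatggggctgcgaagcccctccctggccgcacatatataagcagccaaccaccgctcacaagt
Lhx1: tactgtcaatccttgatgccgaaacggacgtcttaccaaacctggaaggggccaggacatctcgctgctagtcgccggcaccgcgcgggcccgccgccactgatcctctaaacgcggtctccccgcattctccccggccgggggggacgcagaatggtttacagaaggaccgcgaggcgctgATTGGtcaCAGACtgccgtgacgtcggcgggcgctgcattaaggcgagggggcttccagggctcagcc
Evx1: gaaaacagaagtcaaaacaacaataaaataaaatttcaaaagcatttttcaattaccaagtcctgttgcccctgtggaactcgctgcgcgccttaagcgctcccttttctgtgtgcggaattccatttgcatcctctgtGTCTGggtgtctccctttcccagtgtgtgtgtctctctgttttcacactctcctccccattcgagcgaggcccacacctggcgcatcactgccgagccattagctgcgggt
The Smad box, a short sequence that Smad3 and Smad4 can bind, occurred in the Lhx1 and Evx1 windows, 1 match each, and in 42.2% of 32851 promoters. The CCAAT box occurred 2 times in the Eomes window and 1 time in the Lhx1 window, and in 33.8% of promoters. The FOXH1 core GTGGATT (2.1% of promoters), the T-box core GGTGTGA (3.33%), the LIM homeodomain core TAATTA (4.84%), the LEF1 and TCF core CTTTGA (13.8%) and the TATA box TATAAA (12.4%) had no match in these windows. Only these exact letters were searched, so variants such as tatataag near the end of the Eomes window were not counted. The motifs searched do not overlap one another in these windows. GC content was 46.4% for Eomes, 64.8% for Lhx1 and 49.6% for Evx1, against a median of 52.4% (quartiles 45.2% and 61.2%) over all promoters.

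Levels are log2 signals, so a step of 1 is a doubling. The signal of 13 genes of other tissues, such as hormone and lens genes, served as a rough guide to background: its median was 4.55, its quartiles were 2.60 and 5.58, and 20 of 156 values exceeded 6. The highest of these values was 7.48. Probes differ in affinity, so this places a signal near background but ranks no gene against another. Signals spread least on replicate 2 of WT-SB (SD 3.07) and on replicate 1 of Smad4-null-ac (SD 3.13), against an SD of 3.24 to 3.39 elsewhere. Values without these arrays are given beside the calls they change. Trim33 itself was 11.72 in WT and 10.18 in Trim33-KD arrays, with 34.4% of the WT signal left (limma adjusted p = 0.0101; 0.0714 without the arrays of narrow spread). The Smad4 probe set had 12.17 in the Smad4-null line against 11.96 in WT; no source used here places its probes relative to the mutation, and the signal cannot check the label. Of 9 measured epiblast markers, all lay in the brighter 50% of genes, and their summed linear signal was 50725 to 59524 over all 12 arrays. In Smad4-null 3 of the 9 passed as higher and 3 as lower (2 and 1 with median centring or without the arrays of narrow spread), and in Trim33-KD 1 passed as lower (0 with either). Over all genes, 7.12% were called higher and 11.3% lower in Smad4-null, and 0.445% and 0.203% in Trim33-KD.

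Eomes had its highest mean signal in WT and its lowest in Smad4-null. With probe set 1435172_at, the WT arrays read 12.18 and 12.04 with activin and 11.49 and 11.36 with SB431542. The Trim33-KD arrays read 11.53 and 10.74 with activin and 10.80 and 10.51 with SB431542. The Smad4-null arrays read 8.56 and 8.35 with activin and 7.74 and 7.80 with SB431542. All Smad4-null arrays therefore lay below all others, while Trim33-KD-ac replicate 1 lay above both WT-SB arrays. Probe set 1426001_at gave nearly the same picture in WT, with 12.10 and 11.90 against 11.42 and 11.18, and in Trim33-KD, with 11.53 and 10.69 against 10.57 and 10.22 (activin against SB431542). In Smad4-null it read 8.0 and 7.89 with activin and 7.88 and 7.99 with SB431542, so the groups overlapped there. From highest to lowest, the group means of 1435172_at ran WT-ac, WT-SB, Trim33-KD-ac, Trim33-KD-SB, Smad4-null-ac and Smad4-null-SB. Of these neighbours, WT-SB and Trim33-KD-ac, and Trim33-KD-ac and Trim33-KD-SB, overlapped. The step from Trim33-KD-SB to Smad4-null-ac was 2.20, beyond the wider range of these groups (0.29), and the steps between the treatments within WT (0.69) and within Smad4-null (0.69) also exceeded the ranges beside them.

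Lhx1 varied more between arrays. With probe set 1450428_at, the WT arrays read 8.81 and 9.36 with activin and 8.70 and 8.46 with SB431542. The Trim33-KD arrays read 8.46 and 7.01 with activin and 8.24 and 6.47 with SB431542. The Smad4-null arrays read 3.22 and 5.40 with activin and 5.44 and 5.90 with SB431542. The gap between the Trim33-KD replicates, up to 1.77, exceeded the difference between their treatments (0.39), and replicate 1 was the higher one with either treatment. The Smad4-null arrays lay within the range of the background genes, which reached 7.48. The Trim33-KD arrays of replicate 2 (7.01 and 6.47) lay within it too. Probe set 1421951_at read 8.0 and 8.57 (WT-ac), 7.77 and 8.08 (WT-SB), 7.75 and 6.85 (Trim33-KD-ac), 7.51 and 6.42 (Trim33-KD-SB), 3.27 and 3.51 (Smad4-null-ac) and 4.47 and 4.12 (Smad4-null-SB). It showed the same order of group means, with Smad4-null-ac lowest. For 1450428_at none of the steps between neighbouring group means exceeded the wider range of the groups on either side; for 1421951_at the step from Trim33-KD-SB to Smad4-null-SB did, with 2.67 against 1.08, as did the step within Smad4-null.

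Evx1 has 1 probe set on the array. Its WT arrays read 8.85 and 8.80 with activin and 7.68 and 8.20 with SB431542. The Trim33-KD arrays read 7.84 and 7.76 with activin and 7.51 and 7.03 with SB431542. The Smad4-null arrays read 3.44 and 4.49 with activin and 5.08 and 3.61 with SB431542, all within the range of the background genes. Trim33-KD-SB replicate 2 (7.03) lay within that range too. The group means ran WT-ac, WT-SB, Trim33-KD-ac, Trim33-KD-SB, Smad4-null-SB and Smad4-null-ac. WT-SB and Trim33-KD-ac overlapped, as did the 2 Smad4-null groups, and the step from Trim33-KD-SB to Smad4-null-SB was 2.92 against a wider range of 1.47. The steps between the treatments within WT (0.88 against 0.51) and within Trim33-KD (0.53 against 0.48) also exceeded the wider range.

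**Figure D1:**
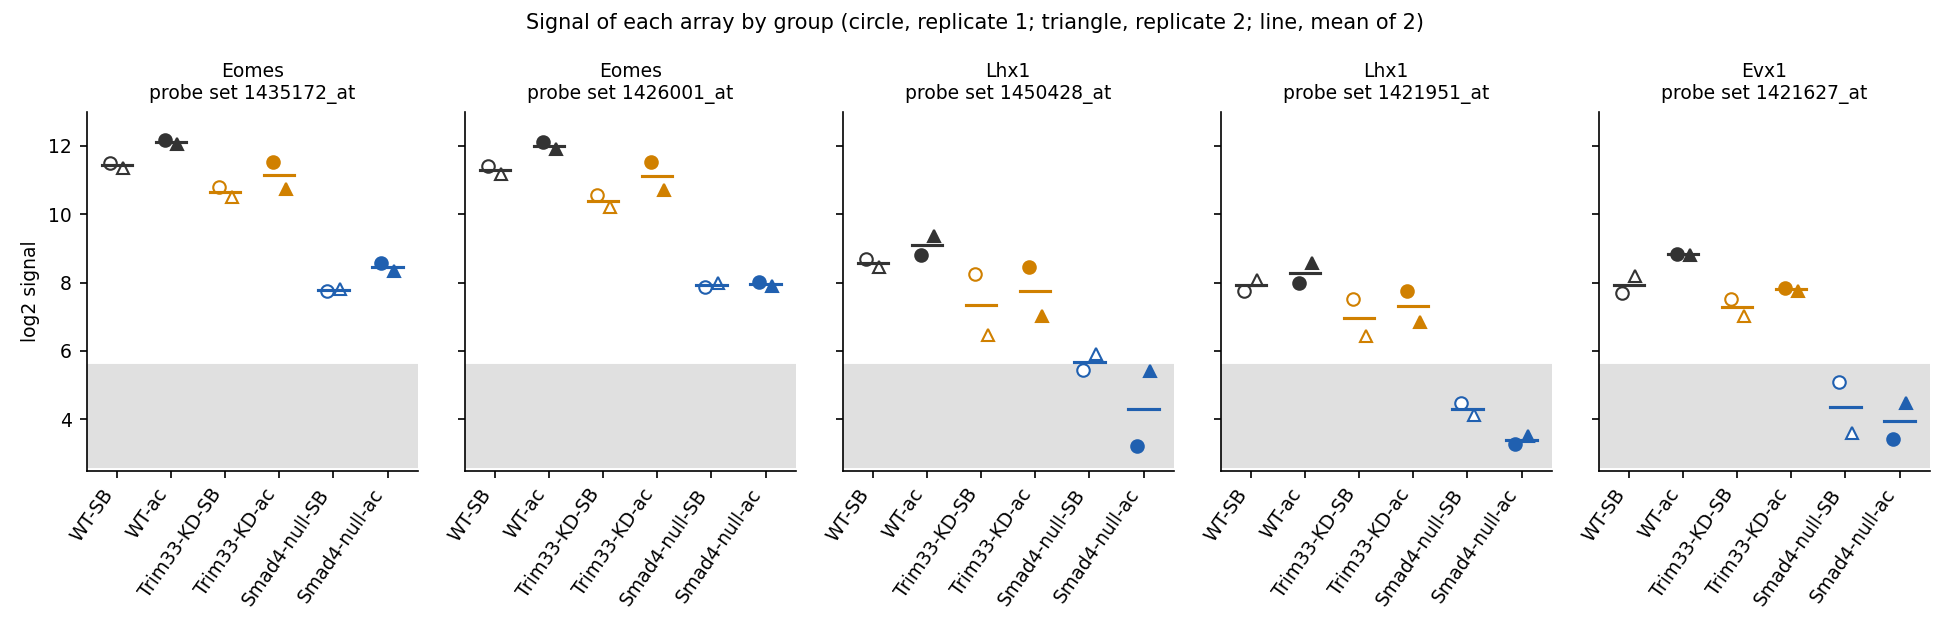
Log2 signal (vertical axis) of each array for the 5 probe sets of Eomes, Lhx1 and Evx1, by group (horizontal axis); filled points are activin, open points SB431542, circles replicate 1, triangles replicate 2, lines the mean of 2, and the grey band spans the quartiles of the other-tissue genes (2.60 to 5.58). In every panel the 4 Smad4-null arrays are the lowest; for Lhx1 and Evx1 they lie in or just above the grey band, and for Eomes above it.

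The comparison of Smad4-null with WT asks how far the line labelled Smad4-null differed apart from the treatment. Averaged over the treatments, the log2 signal of Eomes was 11.77 ± 0.41 in WT and 8.11 ± 0.41 in Smad4-null, that of Lhx1 8.83 ± 0.38 and 4.99 ± 1.20, and that of Evx1 8.38 ± 0.55 and 4.15 ± 0.77 (mean ± SD, n = 4 arrays). These SDs pool the 2 arrays of each treatment, so they include the difference between treatments. Eomes fell by 3.65 (SE 0.18, limma adjusted p = 6.42e-05), Lhx1 fell by 3.84 (SE 0.60, adjusted p = 0.00473) and Evx1 fell by 4.23 (SE 0.36, adjusted p = 0.000454). All 3 genes passed, where 11.3% of all genes were called lower and 18.4% in either direction (3356 genes, or 2026 without the arrays of narrow spread). For all 3, the 4 Smad4-null arrays lay below the 4 WT arrays, which held in one direction or the other for 25.8% of all genes. By the second probe sets, Eomes fell by 3.71 (adjusted p = 0.00021), and Lhx1 fell by 4.26 (adjusted p = 0.000562) in a limma fit of every probe set, in which 8.84% were called. Because the Smad4-null signal of Lhx1 and Evx1 lay at background, their differences depended on how background is treated. With signals floored at 64 on the linear scale (6 on the log2 scale), Lhx1 fell by 2.83 (adjusted p = 0.00818) and Evx1 fell by 2.38 (adjusted p = 0.00019). In these bulk samples, fewer cells that express a gene and less RNA per cell cannot be told apart.

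Within each treatment, Eomes and Evx1 passed, and Lhx1 passed with activin. With SB431542, Eomes fell by 3.65 (adjusted p = 0.000813) and Evx1 fell by 3.59 (adjusted p = 0.00804), while Lhx1 had a difference of -2.91 that missed the threshold (adjusted p = 0.0792). So 2 of 3 genes passed, where 6.12% of all genes were called lower and 9.1% in either direction (1656 genes, or 338 without the arrays of narrow spread). The median of all genes was itself shifted by -0.12 in this comparison. Arrays of the groups were apart for 3 of 3 genes and for 53.7% of all genes. Lhx1 probe set 1421951_at fell by 3.63 (adjusted p = 0.0106 in the fit of every probe set, in which 2.91% were called). Without WT-SB replicate 2, Evx1 had -3.34 and an adjusted p of 0.0501 (0.061 without Smad4-null-ac replicate 1 as well). With each array centred on its median, the calls over all genes were 581 higher and 494 lower, against 542 and 1114 here. With activin, Eomes fell by 3.66 (adjusted p = 0.000742), Lhx1 fell by 4.77 (adjusted p = 0.016) and Evx1 fell by 4.86 (adjusted p = 0.0028), so 3 of 3 passed, where 5.6% of all genes were called lower and 9.29% in either direction (1690 genes, or 434 without the arrays of narrow spread), and the arrays of 57.1% were apart. The Lhx1 call with activin was lost without WT-ac replicate 1 (-5.05, adjusted p = 0.0691), WT-ac replicate 2 (-4.50, adjusted p = 0.0912) or Smad4-null-ac replicate 1 (-3.68, adjusted p = 0.0753; 0.111 without both arrays of narrow spread). With the floor of 64, Evx1 fell by 1.94 with SB431542 and by 2.82 with activin, and Lhx1 fell by 3.09 with activin.

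The comparison of Trim33-KD with WT asks the same of the knock-down. The log2 signal in Trim33-KD was 10.90 ± 0.44 for Eomes, 7.55 ± 0.96 for Lhx1 and 7.54 ± 0.37 for Evx1 (mean ± SD, n = 4 arrays, both treatments pooled). The difference from WT was -0.87 for Eomes (54.7% of the WT signal; 95% interval -1.28 to -0.46; limma adjusted p = 0.0873). It was -1.29 for Lhx1 (40.9% of WT; interval -2.69 to 0.11; adjusted p = 0.329) and -0.85 for Evx1 (55.6% of WT; interval -1.69 to 0.00; adjusted p = 0.295). None of the 3 passed, where 0.649% of all genes were called (81 higher and 37 lower, or 222 and 24 with median centring, and 17 and 4 without the arrays of narrow spread); Eomes alone had an unadjusted p under 0.05. Eomes did pass when tested within the brighter 50% of genes (adjusted p = 0.00823), with a trended and robust prior (adjusted p = 0.00765) and without Trim33-KD-ac replicate 1 (-1.07, adjusted p = 0.0314). Lhx1 and Evx1 lay outside the brighter 50% and were not tested there. Arrays of the 2 lines were apart for 0 of 3 genes when treatments were pooled, against 12.4% of all genes. This and the unadjusted p above refer to 1 probe set per gene. Lhx1 probe set 1421951_at had -0.97 (interval -1.68 to -0.26), and its arrays were apart. Its unadjusted p was 0.0144 and its adjusted p 0.272 in a limma fit of every probe set. Eomes probe set 1426001_at had -0.89 (adjusted p = 0.174 in that fit), and its arrays overlapped. Within SB431542 the differences were -0.76 for Eomes, -1.23 for Lhx1 and -0.67 for Evx1, with 0 of 3 called in limma (0% of all genes; Eomes alone had an unadjusted p under 0.05). Within activin they were -0.98, -1.35 and -1.02, with 0 of 3 called (0.0055% of all genes; again Eomes alone under 0.05 unadjusted). In each treatment both Trim33-KD arrays lay below both WT arrays for all 3 genes, as was the case in one direction or the other for 38.9% of all genes with SB431542 and 42.4% with activin.

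The mutant lines were also set against each other. Eomes was higher in Trim33-KD than in Smad4-null by 2.78 (SE 0.18, adjusted p = 0.000163), Lhx1 by 2.56 (SE 0.60, adjusted p = 0.0244) and Evx1 by 3.38 (SE 0.36, adjusted p = 0.00106). So 3 of 3 passed, where 11.1% of all genes were called higher (2018, with 1332 lower; 2857 and 721 with median centring), and arrays were apart for 3 of 3 genes and 27.2% of all genes. The Lhx1 call was lost with the floor of 64 (1.55, adjusted p = 0.0722), without the arrays of narrow spread (2.01, adjusted p = 0.086) and without any one of 5 arrays. Those arrays were replicate 1 of Trim33-KD-ac (2.19), Trim33-KD-SB (2.11), Smad4-null-ac (2.01) and Smad4-null-SB (2.44), and Smad4-null-SB replicate 2 (2.67). With the floor of 64, Evx1 was higher by 1.54 (adjusted p = 0.000883).

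**Figure D2:**
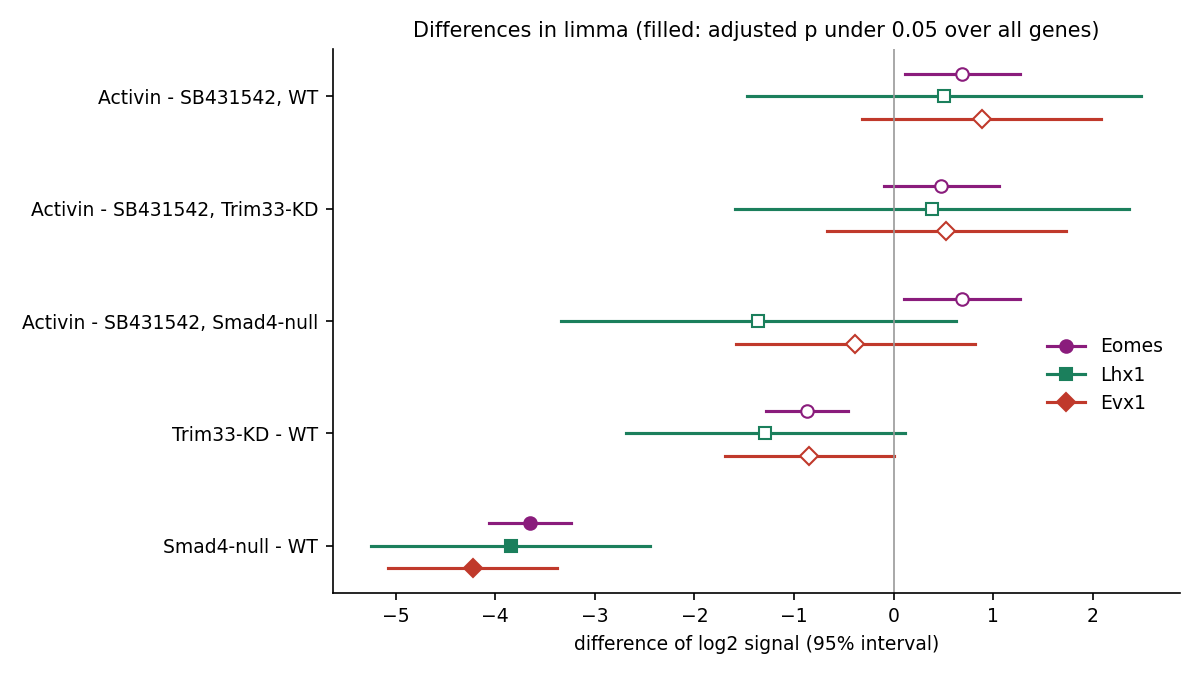
Difference of log2 signal (horizontal axis) with its 95% interval from limma for Eomes, Lhx1 and Evx1 (1 probe set per gene, 12 arrays) in 5 comparisons (vertical axis); filled markers have an adjusted p under 0.05. Only the Smad4-null minus WT differences, -3.65, -3.84 and -4.23, are filled, and the intervals of Lhx1 are the widest.

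The response to 2 h of activin against SB431542 was small beside the Smad4-null differences. In WT the difference was 0.69 for Eomes (1.61-fold; SE 0.25; 95% interval 0.11 to 1.27; limma adjusted p = 1), 0.50 for Lhx1 (SE 0.85; interval -1.48 to 2.49) and 0.88 for Evx1 (1.84-fold; SE 0.51; interval -0.32 to 2.08). None of 3 was called (0.033% of all genes), and Eomes alone had an unadjusted p under 0.05. Both activin arrays lay above both SB431542 arrays for 3 of 3 genes; arrays were apart in one direction or the other for 26.7% of all genes. Probe set 1426001_at gave 0.70 for Eomes, close to the first, and 1421951_at gave 0.36 for Lhx1, with overlapping arrays. In Trim33-KD the differences were 0.48 for Eomes (0.72 with 1426001_at), 0.39 for Lhx1 and 0.53 for Evx1. Eomes had 0.08 without Trim33-KD-ac replicate 1 and 0.88 without replicate 2, and Evx1 had 0.29 without Trim33-KD-SB replicate 2. With 1 probe set per gene, 0 of 3 were called in limma (0.011% of all genes) and none had an unadjusted p under 0.05. Arrays were then apart for Evx1 alone (30.4% of all genes). Eomes probe set 1426001_at had arrays that were apart and an interval of 0.06 to 1.37. Its unadjusted p was 0.0352 in a limma fit of every probe set, in which it was not called.

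In Smad4-null the probe sets of Eomes differed. Probe set 1435172_at gave 0.69 (interval 0.11 to 1.27; adjusted p = 0.648) and 1426001_at gave 0.01 (interval -0.64 to 0.66). Lhx1 had -1.36 and Evx1 -0.38, both measured at background; floored at 64, neither gene had any difference. None of 3 was called in limma (0.011% of all genes). Eomes alone of the 3 had an unadjusted p under 0.05, by 1435172_at only. Arrays were apart for Eomes, again by 1435172_at only, and for Lhx1, against 43.8% of all genes. Evx1 had 0.14 in Smad4-null without the arrays of narrow spread. Averaged over the 3 lines, Eomes had 0.62 (SE 0.14; interval 0.28 to 0.95; adjusted p = 0.465), Lhx1 -0.16 and Evx1 0.34, with 0 of 3 called in limma (0.0824% of all genes; Eomes alone under 0.05 unadjusted). Arrays were apart for 0 of 3 genes with the lines pooled, against 0.0879% of all genes. The Lhx1 average turned positive with the floor of 64 (0.30) and without the arrays of narrow spread (0.17).

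The test of whether a line changed the response is the difference between responses. Smad4-null minus WT, it was -0.01 for Eomes (interval -0.83 to 0.81; -0.69 with 1426001_at), -1.86 for Lhx1 (interval -4.66 to 0.94) and -1.27 for Evx1 (interval -2.96 to 0.43). For Lhx1 and Evx1 the Smad4-null signal lay at background, and with the floor of 64 the values were -0.50 and -0.88; Lhx1 had -0.77 without Smad4-null-ac replicate 1. The sign for Eomes turned with quantile normalization (0.01), and the median of all genes was 0.11. Trim33-KD minus WT, it was -0.21 for Eomes (interval -1.03 to 0.61), -0.12 for Lhx1 (interval -2.92 to 2.68; 0.00 without the arrays of narrow spread) and -0.35 for Evx1 (interval -2.05 to 1.34). In each of these comparisons 0 of 3 genes and 0% of all genes were called in limma; 1317 and 485 genes of all had an unadjusted p under 0.05, and none of the 3 was among them. Intervals of this width do not show that the responses were alike.

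The other streak factors of the same tissue were low in Smad4-null too. Of 19 measured, 13 fell and 0 rose, with a median difference of -1.14 against -0.03 over all genes, of which 7.12% were called higher and 11.3% lower. Gsc, a homeobox gene of the organizer, fell by 4.38, Mixl1, a homeobox gene of the streak, fell by 4.26, Wnt3, a ligand that starts the streak, fell by 3.53, and Cer1, a secreted antagonist of nodal, fell by 3.42 (adjusted p from 0.000277 to 0.0203). Without the arrays of narrow spread 7 of the 19 passed as lower, and Wnt3 was not among them (-2.99, adjusted p = 0.0895). In Trim33-KD 1 of 19 fell, Otx2 (-0.95, adjusted p = 0.0324), a homeobox gene of the epiblast and anterior embryo; that call was lost with median centring (-0.75, adjusted p = 0.0651) and without the arrays of narrow spread (-1.02, adjusted p = 0.111). The median was -0.53 against -0.04 over all genes, of which 0.203% were called lower and 0.445% higher. Of 12 posterior streak and early Hox genes other than Evx1, 8 passed as lower in Smad4-null and 0 as higher (7 and 0 with the floor of 64 or without the arrays of narrow spread), and the median was -3.16. Sp5, a zinc finger gene induced by Wnt signals, fell by 6.68, Rspo3, which enhances Wnt signalling, fell by 4.47, and Wnt3 is in this list too. Cdx1, a caudal type homeobox gene, passed as lower with levels of 5.70 in WT and 1.99 in Smad4-null, at background in each. In Smad4-null, Gsc (3.71), Wnt3 (3.04), Cer1 (3.95), Rspo3 (3.58) and Sp5 (4.76) also lay at background, so the sizes of their differences depend on how background is treated. In Trim33-KD none of the 12 passed in limma, and the median was -0.20 (0.00058 with median centring, where the median of all genes was 0.16). Evx2, the paralogue of Evx1, had 6.36 in WT and 6.11 in Smad4-null, a difference of -0.25 (adjusted p = 0.0981); it was chosen after its value was seen. T, a classic streak gene, was not analysed here.

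**Figure D3:**
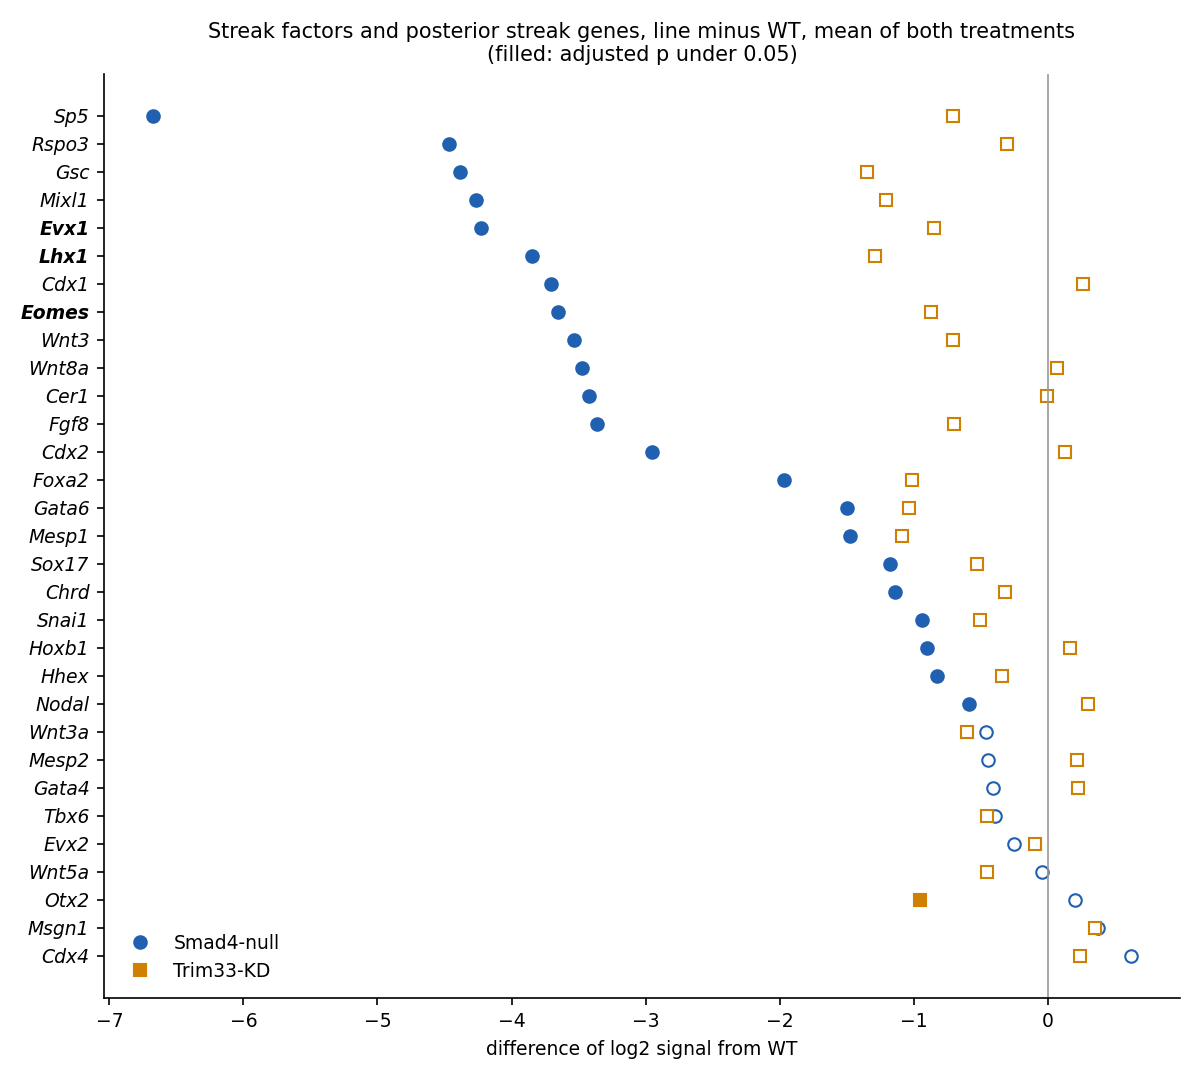
Difference of log2 signal from WT, averaged over treatments (horizontal axis), for 31 streak and posterior streak genes (vertical axis, Eomes, Lhx1 and Evx1 in bold) in Smad4-null (circles) and Trim33-KD (squares); filled markers have a limma adjusted p under 0.05. Circles reach -6.68 at Sp5, and Otx2 is the only filled square.

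Genes tied to Eomes in embryos, as targets, partners or genes of the same step, were mostly low as well. Of 14 such genes other than Lhx1, 10 fell in Smad4-null and 1 rose, with a median of -1.33. Over all genes, 11.3% were called lower and 7.12% higher. The one that rose was Cdh1 (0.55, adjusted p = 0.00806), the epithelial cadherin gene, which is normally turned down as cells pass through the streak. Mesp1, a factor of nascent mesoderm, fell by 1.47, and Foxa2, a factor of endoderm and axial mesoderm, fell by 1.97; they were chosen after their values were seen. Without the arrays of narrow spread 7 passed as lower and 1 as higher, and Foxa2 was lost (adjusted p = 0.0543). This list shares genes with that of the streak factors. In Trim33-KD 0 of the 14 passed in limma, with a median of -0.52.

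Other members of the T-box and LIM homeobox families were counted too. Of all genes, 7.12% were called higher and 11.3% lower in Smad4-null. Only 2 of 15 measured T-box genes, Eomes included, lay in the brighter 50% of genes. Of 12 measured LIM homeobox genes, Lhx1 included, 0 did. Of 14 T-box genes other than Eomes, 2 rose in Smad4-null, Tbx3 (0.82, adjusted p = 0.0235) and Mga (0.72, adjusted p = 0.00576), and Tbx15 passed as lower with levels of 3.94 in WT and 2.31 in Smad4-null, at background in each. The Tbx3 call was lost without the arrays of narrow spread (0.90, adjusted p = 0.0635) and that of Tbx15 there and with the floor of 64, while 3 T-box genes passed as higher with quantile normalization and with median centring. Of 11 LIM homeobox genes other than Lhx1, 0 fell; Lhx2 passed as higher with levels of 1.81 in WT and 5.46 in Smad4-null, which are also at background, and was not called with the floor or without the arrays of narrow spread. LIM homeodomain proteins act with cofactors of the Ldb, Lmo and Ssbp families, and 5 of 10 of these fell. Ldb2, a bridging cofactor, fell by 1.92, Lmo2, a LIM-only protein, fell by 1.20, and the single-strand DNA binding proteins Ssbp2 and Ssbp4 fell by 1.12 and 0.42 (adjusted p from 0.00128 to 0.036). With median centring 3 of 10 passed (4 with quantile normalization), without Ssbp4 (-0.39, adjusted p = 0.0858), and without the arrays of narrow spread 2 passed, without Lmo2 (-0.90, adjusted p = 0.0933) and Ssbp4 (-0.51, adjusted p = 0.0677). Ldb1, the broadly used bridging cofactor, had 10.35 in WT and 10.49 in Smad4-null (adjusted p = 0.622); it was chosen after its value was seen. In Trim33-KD none of the members of these 3 lists passed in limma; with the floor of 64, 1 of the 10 cofactors did (Ssbp3, -0.30, adjusted p = 0.0401).

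The nodal pathway that lies upstream had members in either direction. Of 16 measured genes, 4 were higher and 6 lower in Smad4-null, with a median of -0.07. Over all genes, 7.12% were called higher and 11.3% lower. Lefty1, a secreted nodal antagonist, rose by 1.32, Gdf3, a nodal co-ligand, rose by 1.10, Skil, a Smad co-repressor, rose by 0.45, and Smad2 rose by 0.25. Smad7, the inhibitory Smad, fell by 1.06, Furin, a protease that matures nodal, fell by 0.79, Tdgf1, the nodal co-receptor, fell by 0.70, and Foxh1, the DNA-binding partner of Smad2, fell by 0.60. With median centring the calls were 3 higher and 5 lower, without Smad2 (adjusted p = 0.154) and Foxh1 (0.0584), and with quantile normalization they were 4 and 5, with a median of 0.01. Without the arrays of narrow spread they were 2 higher and 3 lower, without these same genes (0.147 and 0.0584) and Skil (0.0593). In Trim33-KD 1 of 16 passed, Lefty2 (0.78, adjusted p = 0.0365; 0.145 without the arrays of narrow spread). In the WT response to activin against SB431542, 2 of 16 passed, Smad7 (3.11) and Lefty1 (2.81), where Eomes had 0.69, Lhx1 0.50 and Evx1 0.88.

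Markers of other cell types were read because Eomes also marks trophoblast and Lhx1 the visceral endoderm. Of all genes, 7.12% were called higher and 11.3% lower in Smad4-null, and 0.445% and 0.203% in Trim33-KD. Counts in lists this small were not tested against these shares. Of 11 trophoblast markers, 1 fell in Smad4-null, Cdx2, which is also a posterior streak gene. Their summed linear signal was 3918 to 4144 over the Smad4-null arrays, 4461 to 5475 over WT and 5694 to 11897 over Trim33-KD. Of 13 visceral endoderm markers 3 fell, Gata6, Sox7 and Sox17, and their summed signal was 907 to 1177 in Smad4-null, 1157 to 1493 in WT and 1057 to 1286 in Trim33-KD. Of 9 neural markers 2 rose, Pax6 (1.59) and Hesx1 (1.21), and 1 fell, Nes (-1.68); their sums were 810 to 921 in Smad4-null, 1127 to 1282 in WT and 978 to 1065 in Trim33-KD. Without the arrays of narrow spread, Sox7 (adjusted p = 0.175), Sox17 (0.134) and Hesx1 (0.106) were no longer called, nor was Hesx1 with the floor of 64 (0.0517). In Trim33-KD the trophoblast and visceral endoderm lists had 0 called in limma (1 of 13 visceral endoderm genes, Gata6, with median centring), and Pax6 was the single neural gene called (-0.80, adjusted p = 0.0353; 0.145 without the arrays of narrow spread). Signals on these arrays have no true 0; Elf5 and Gata3 of the trophoblast list, with means of at most 3.50, and Afp and Ttr of the visceral endoderm list, with means of at most 3.56 in any line, lay at background. The part of these cell types in the levels of Eomes, Lhx1 and Evx1 was not tested.

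Both Lhx1 and Evx1 have a neighbouring non-coding gene on the opposite strand, Lhx1os and Evx1os. Evx1os read 6.80 and 7.05 (WT-ac), 6.63 and 6.78 (WT-SB), 6.00 and 6.45 (Trim33-KD-ac), 6.39 and 6.26 (Trim33-KD-SB), 5.55 and 4.14 (Smad4-null-ac) and 4.03 and 3.61 (Smad4-null-SB). It fell by 2.48 in Smad4-null (adjusted p = 0.00163), where it lay at background, and by 0.81 with the floor of 64 (adjusted p = 0.00375). All its Smad4-null arrays lay below the others, and in Trim33-KD it had a difference of -0.54. Its WT and Trim33-KD values also lay below the highest background value of 7.48. Lhx1os read 4.95 and 5.46 (WT-ac), 4.92 and 5.19 (WT-SB), 4.72 and 3.65 (Trim33-KD-ac), 4.43 and 4.46 (Trim33-KD-SB), 4.45 and 3.65 (Smad4-null-ac) and 3.64 and 3.07 (Smad4-null-SB). It passed as lower in Smad4-null (-1.42, adjusted p = 0.0143), yet all of these values lie within the background range, and the call was lost with the floor of 64 and without the arrays of narrow spread (adjusted p = 0.0514). Of the 10 other nearest measured genes, 2 on each side of Eomes and the rest around Lhx1 and Evx1, none fell in limma. Golga4 next to Eomes (0.26, adjusted p = 0.0445), and Aatf (0.35, adjusted p = 0.0359) and Mrm1 (0.70, adjusted p = 0.0275) near Lhx1, rose, where 7.12% of all genes were called higher. Golga4 and Aatf were not called with median centring (adjusted p = 0.101 and 0.0844), and none of these 3 was called without the arrays of narrow spread (adjusted p = 0.194, 0.174 and 0.137).

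**Figure D4:**
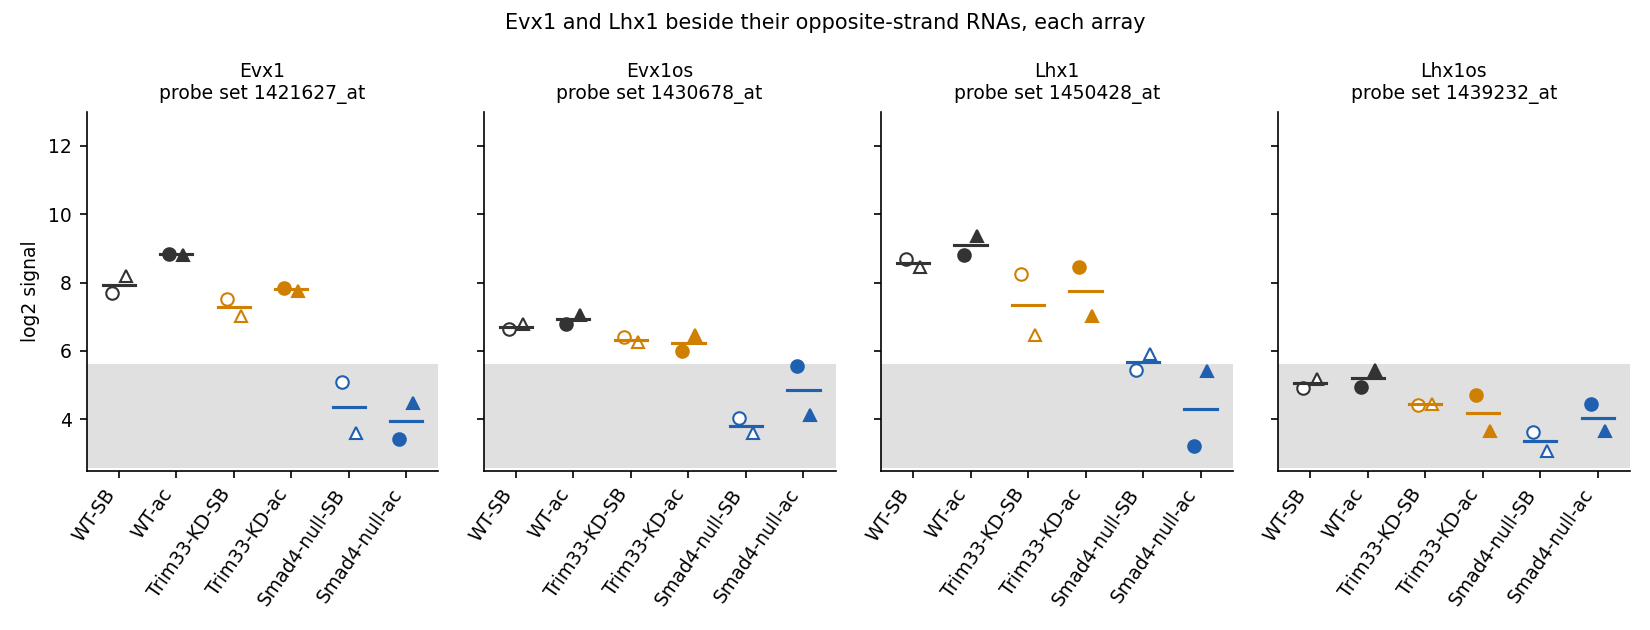
Log2 signal (vertical axis) of each array by group (horizontal axis) for Evx1, Evx1os, Lhx1 and Lhx1os, with symbols and grey band as in the plot of the 5 probe sets. Evx1os drops from 6.63 or more in WT to 5.55 or less in Smad4-null, while Lhx1os stays in the grey band throughout.

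The genes whose log2 signal ran most closely with each factor were sought in the brighter 50% of genes, by Pearson correlation over the 12 arrays. For Eomes these were Snx12 (0.988), Cda (0.987), Carhsp1 (0.985), Zmym2 (0.984) and Nrcam (0.982). For Lhx1 they were Trio (0.973), Dyrk2 (0.968), Socs7 (0.968), Zyg11b (0.967) and Dusp6 (0.962), and for Evx1 they were Pgap4 (0.981), Rem2 (0.978), Sp5 (0.977), Dgkk (0.977) and Crot (0.976). The arrays fall into clusters by line, so the values are a description of 12 arrays and carry no test. Over the 8 arrays without Smad4-null the correlation was 0.950 for Carhsp1 with Eomes, 0.954 for Dyrk2 with Lhx1 and 0.920 for Sp5 with Evx1, and 0.918 or less for the others of each 5, except Zyg11b (0.934). Snx12 had -0.48 in Smad4-null against WT, where Eomes had -3.65.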

How the data were processed

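Total RNA of 12 embryoid body samples was hybridised to Affymetrix mouse arrays, 1 array per sample. The values are log2 signals per probe set as deposited; on the linear scale the mean of every array is 500 once 2% is trimmed from either end. No source used here states how probes were summarised; the submitters' processing notes name limma. Of 45101 probe sets, 64 are controls. Symbols came from the platform table (34945 probe sets with 1 symbol), and the probe set with the highest mean stood for each of 18193 genes.

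In R 4.3.3 with limma 3.58.1 (lmFit, eBayes), 1 mean per group was fitted to all 12 arrays (6 residual degrees of freedom), with Benjamini-Hochberg adjustment over all genes and a threshold of 0.05. The fit was tested on simulated data. Member probe sets not standing for a gene, and no others, were read from a fit of 45037 probe sets. Arrays have no read depth; their number limits the precision.

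The members, the lists and the tests were chosen with earlier results of these data known. Named were Eomes, Lhx1 and Evx1 throughout, up to 4 called members per direction of the lists, Trim33 and Smad4, and the 5 most similar genes per member; other names are said to be chosen after their values were seen, and genes in the marker, neighbour and Eomes-linked lists are named beside their counts. The replicate numbers were treated as names. Alternatives were quantile normalization, median centring, the brighter 50% of genes, a floor of 64, the mean of probe sets, every probe set, array weights, a replicate block, a trended and robust prior, a fit of only the groups compared, and leaving out single arrays or those of narrow spread. Plots were made in matplotlib 3.10.9 under Python 3.11.15.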

Additional observations from a re-analysis of the deposited data

How the results depend on the processing

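Over 39 results of Eomes, Lhx1 and Evx1 and 11 alternatives other than single arrays, 382 of 403 values kept direction and side of the threshold; the exceptions follow, and their cause was not tested except where fewer genes or arrays enter by construction. Lhx1 and Evx1 lay outside the brighter 50% of genes, so that alternative covers Eomes alone. The difference itself is fixed by construction in the brighter 50%, with every probe set, the prior, array weights, only the groups compared and the replicate block. Only the adjusted p could move there, so the count of values kept overstates how far direction was tried. The floor of 64 could not move Eomes either, whose signals all lay above it. Groups of 2 arrays limit every comparison, and Smad4-null signals at background limit the sizes for Lhx1 and Evx1.

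Only the groups compared (fewer arrays): Smad4-null minus WT with activin was -3.66 for Eomes (adjusted p = 0.0807), -4.77 for Lhx1 (0.125) and -4.86 for Evx1 (0.0882), and with SB431542 -3.65 for Eomes (0.107) and -3.59 for Evx1 (0.141), none called; Trim33-KD minus Smad4-null for Lhx1 was 2.56 (0.0644). Eomes in Trim33-KD minus WT (-0.87) was called among the brighter 50% of genes (0.00823) and with a trended and robust prior (0.00765). Lhx1 in Smad4-null minus WT with SB431542 was called with the mean of probe sets (-3.27, 0.0236) and the trended and robust prior (-2.91, 0.013). With the floor of 64, Trim33-KD minus Smad4-null for Lhx1 was 1.55 (0.0722), the Smad4-null response was 0 for Lhx1 and Evx1, and the mean response of Lhx1 turned to 0.30. Without the arrays of narrow spread, the values were -3.34 for Evx1 (Smad4-null minus WT with SB431542, 0.061), -3.68 for Lhx1 (with activin, 0.111), 2.01 for Lhx1 (Trim33-KD minus Smad4-null, 0.086), and turned signs of 0.14 for Evx1 (Smad4-null response), 0.17 for Lhx1 (mean response) and 0.0018 for Lhx1 (response in Trim33-KD minus WT). With quantile normalization the Eomes response in Smad4-null minus WT turned to 0.0050.

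Numbers of genes called over all genes moved by more than 1.5 times as follows. In the WT response, from 6, they were 2 with median centring, 14 in the brighter 50%, 2 with every probe set, 13 with the trended and robust prior, and 0 with only the groups compared or without the arrays of narrow spread. In the Smad4-null response, from 2, they were 6 with quantile normalization (1 higher, 5 lower), 11 with the floor, 9 with array weights, and 0 in the brighter 50%, with every probe set, the prior or only the groups compared. In the Trim33-KD response, from 2, they were 13 in the brighter 50% and with the prior, 7 with the floor, 1 with the mean of probe sets and with every probe set, and 0 with only the groups compared or without the narrow arrays. In the mean response, from 15, they were 49 in the brighter 50%, 29 with the floor, 9 with the mean of probe sets, 45 with the prior and 5 without the narrow arrays. For the response in Smad4-null minus WT, from 0, they were 4 in the brighter 50%, 11 with the floor and 2 with the prior. For the response in Trim33-KD minus WT, from 0, they were 2 with the floor. For Smad4-null minus WT, from 3356, they were 2026 without the narrow arrays. With activin, from 1690, they were 1045 with the mean of probe sets, 0 with only the groups compared and 434 without the narrow arrays. With SB431542, from 1656, they were 1075 with median centring, 0 with only the groups compared and 338 without the narrow arrays. For Trim33-KD minus WT, from 118, they were 246 with median centring, 789 in the brighter 50%, 230 with the floor, 52 with the mean of probe sets, 51 with every probe set, 637 with the prior, 65 with array weights, 2 with only the groups compared and 21 without the narrow arrays. With activin, from 1, they were 61 in the brighter 50%, 14 with the floor, 50 with the prior, and 0 with every probe set, only the groups compared or without the narrow arrays. With SB431542, from 0, they were 8 with quantile normalization, 4 with median centring, 105 in the brighter 50%, 14 with the floor and 101 with the prior.

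Same-numbered arrays deviated together (correlation over 0.1) in 6 of 15 pairs of groups, and the correlations ran from -0.299 to 0.386. Between the treatments of the same line the correlation was 0.386 in WT, 0.335 in Trim33-KD and -0.192 in Smad4-null. The replicate block was a shift shared by all lines, so pairing within a line was not tested. With a replicate block no call of the 3 genes changed (Eomes in Smad4-null minus WT -3.65, adjusted p = 0.000227; Trim33-KD minus WT -0.87, 0.0778); the calls over all genes were 2 in the WT response and 0 in Trim33-KD minus WT with activin.

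Leaving out 1 array at a time gave these ranges where a call or sign changed. For Eomes they were -0.11 to 0.10 (response in Smad4-null minus WT), -0.61 to 0.19 (response in Trim33-KD minus WT) and -1.07 to -0.67 (level in Trim33-KD minus WT). For Evx1 they were -1.12 to 0.35 (Smad4-null response) and -4.33 to -2.86 (Smad4-null minus WT with SB431542). For Lhx1 they were -0.52 to 0.21 (mean response), -0.50 to 1.27 (Trim33-KD response), -1.01 to 0.77 (response in Trim33-KD minus WT), -5.86 to -3.68 (Smad4-null minus WT with activin) and 2.01 to 3.10 (Trim33-KD minus Smad4-null). Genes called ranged from 6 to 18 (mean response), 0 to 6 (Smad4-null), 0 to 3 (Trim33-KD), 0 to 13 (WT), 0 to 2 (response in Trim33-KD minus WT), 2121 to 3132 (Smad4-null minus WT), 499 to 1709 (with activin), 411 to 1433 (with SB431542), 2071 to 3454 (Trim33-KD minus Smad4-null), 10 to 103 (Trim33-KD minus WT), and 0 to 1 (with activin and with SB431542). The same scalings, floor and removal of arrays were applied to the gene lists and neighbouring genes after seeing the data.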
